A study of Ovis aries with 30 samples.

Results

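Livers of 7 male and 8 female lambs of the control group were compared, without biosolids-exposed animals, to describe how the sexes differ in the absence of the study's exposure. The labels give each lamb a tag number, its sex, the tissue (liver) and its prenatal exposure, here control. The other 15 lambs of the series, 7 males and 8 females, carry the prenatal exposure label biosolids, which is processed sewage sludge spread on land as fertiliser. Age, breed, litter and processing batch are not given in the labels, so littermates cannot be recognised and each lamb was taken as independent. The members were autosomal gene rows with at least 1 CPM (counts per mega-count of the library total) in 7 of the 15 control libraries. Of 31304 gene rows in the table, 13755 met this. The values come from whole tissue, so fewer cells of a type and less RNA per cell cannot be told apart.

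Mammalian liver differs between the sexes in steroid and drug metabolism, plasma protein secretion and growth factor output. In rodents much of that difference follows the pattern of growth hormone release from the pituitary, which acts on hepatocytes through the growth hormone receptor, the kinase JAK2 and the transcription factor STAT5B. BCL6 and CUX2 are transcriptional regulators downstream of that signal, and in mouse liver CUX2 is known as the female-specific one. Collagens, in contrast, are made mainly by hepatic stellate cells and portal fibroblasts, and acute phase proteins by hepatocytes under cytokine signals.

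The libraries were deep, with 32.7 M to 51.9 M counts (M, mega-counts) in males (median 37.7 M) and 29.8 M to 39.1 M in females (median 32.3 M). The male mean was 7.32 M higher (exact two-sided permutation test, p = 0.0177). Ribosomal RNA rows took 0.299 to 5.92% of counts in males and 2.62 to 7.69% in females (p = 0.156 by the same exact test), and mitochondrial rows 1.82 to 3.81% and 1.69 to 5.92% (p = 0.173). Hepatocyte products were abundant, with AHSG (fetuin-A) at a median of 13873 CPM in males and 10365 CPM in females. Of 14 erythroid marker genes, 10 had a row and 0 passed the filter. A pair of libraries stood apart. The library labelled control male 8408 held 303 CPM of the X-linked long noncoding row LOC101112291, as the females did (320.2 to 768 CPM), whereas the other control males held at most 2.09 CPM. Its Y-linked row LOC132659055 stood at 18.1 CPM, against 20.7 to 29.2 CPM in the other males and 0.00 CPM in every female. Its Y-linked rows together held 444 CPM, against 293 to 339 CPM in the other males and 117 to 229 CPM in females. Control female 8263 had the highest levels of interferon-stimulated genes, described further on.

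After adjustment for multiple tests 14 autosomal rows differed between control males and control females, 11 higher and 3 lower in males. This is 0.102% of the rows tested (0.08% higher, 0.0218% lower; edgeR quasi-likelihood test, Benjamini-Hochberg adjusted p under 0.05). The higher rows included the collagen chains COL1A1, COL1A2, COL3A1 and COL6A1, the collagen-binding protein AEBP1 and the gelatinase MMP2. The others were LCN2, CUX2, KLHL25, TTC17 and the uncharacterised LOC101105610. The lower rows were NDUFB3 and the long noncoding rows LOC132657733 and LOC121818672. The adjustment also covered rows outside the autosomes. Adjusted over autosomal rows alone, 9 of the 14 were called, each with an adjusted p of 0.0468. KLHL25, LOC101105610, COL3A1, NDUFB3 and MMP2 then had adjusted p-values from 0.0654 to 0.0809. At an unadjusted p under 0.05 there were 2843 rows, 20.7% of those tested, with 1068 higher (7.76%) and 1775 lower (12.9%). The median log2 fold change (males minus females throughout) over all rows was -0.04, and 45.7% lay above 0.

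**Figure D1:**
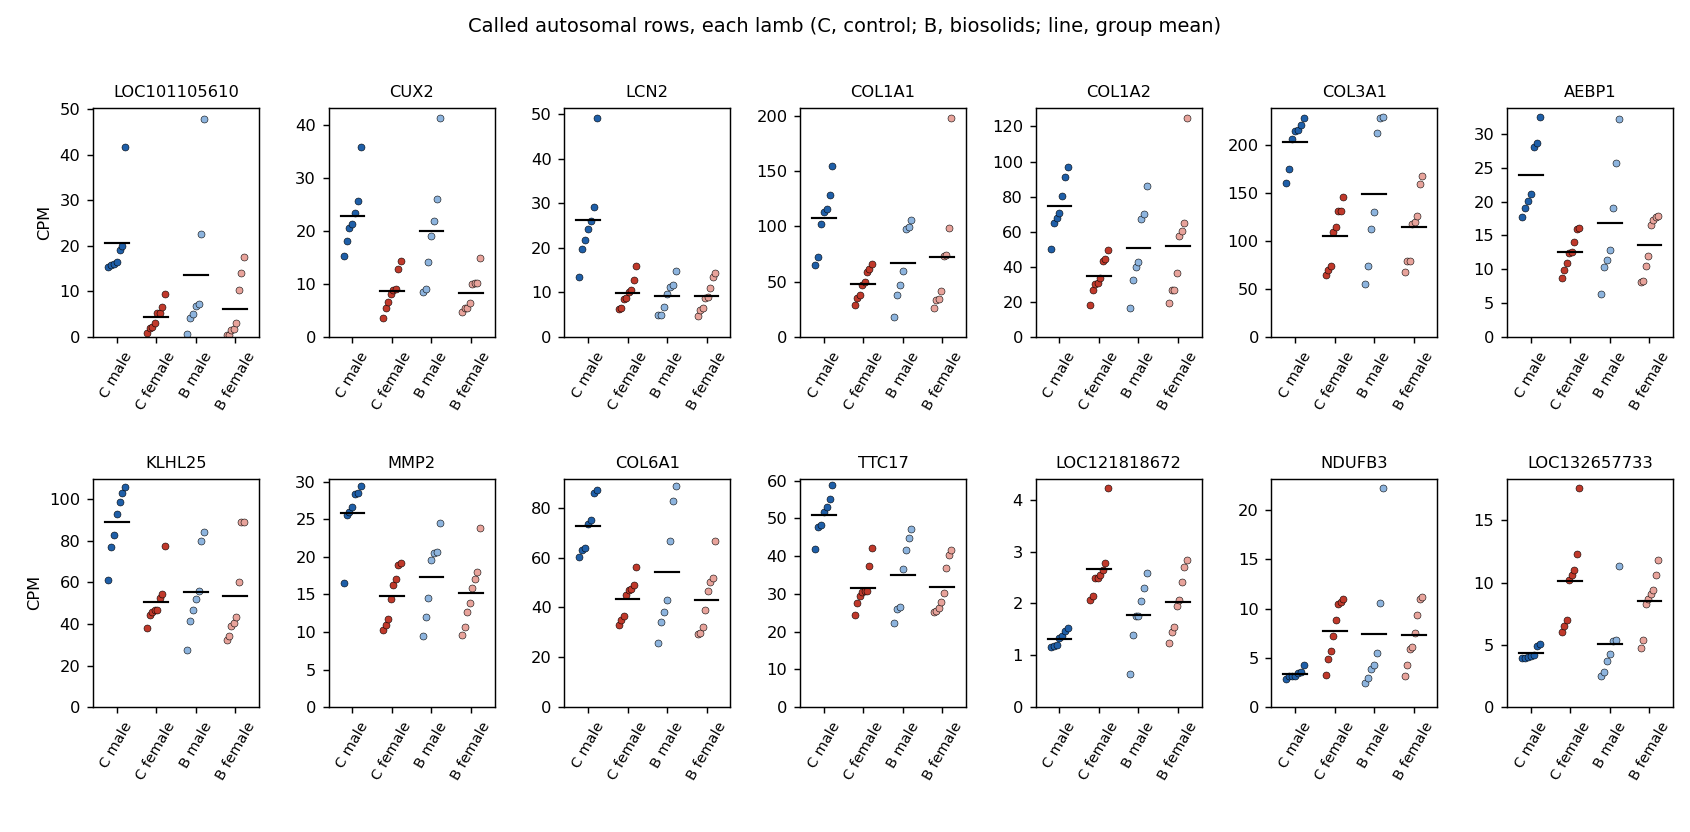
Level of each of the 14 called autosomal rows in CPM (vertical axis, linear from 0) in control males, control females, biosolids males and biosolids females. Each point is a lamb and the line is the group mean. In the control lambs the groups do not overlap for 8 of the 14 rows, while in the biosolids lambs they overlap for all of them. The control values chose these 14 rows. Over all rows tested, the groups did not overlap for 0.182% in control lambs and 0% in biosolids lambs.

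The size of this set depended on which lambs and which test were used. Leaving out 1 control lamb at a time gave between 0 and 115 higher rows and between 0 and 341 lower rows. Without male 8394 no row was called, and without male 8364 there were 115 higher and 341 lower. Without female 8245 there were 61 and 62, without female 8313 there were 22 and 14, and without female 8322 there were 7 and 3. Without any one of males 8351, 8408, 8425 and 8428 or females 8353, 8360 and 8378, at most 5 rows in all were called. On the same 15 lambs DESeq2 called 146 higher (1.06%) and 175 lower (1.27%), and limma voom with sample weights 724 (5.26%) and 1050 (7.63%). All 14 rows were among the calls of both. Without the library labelled male 8408, 2 of the 14 were called, TTC17 and LOC132657733. The other 12 had adjusted p-values from 0.0506 to 0.102, and no log2 fold change of the 14 moved by more than 0.14.

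**Figure D2:**
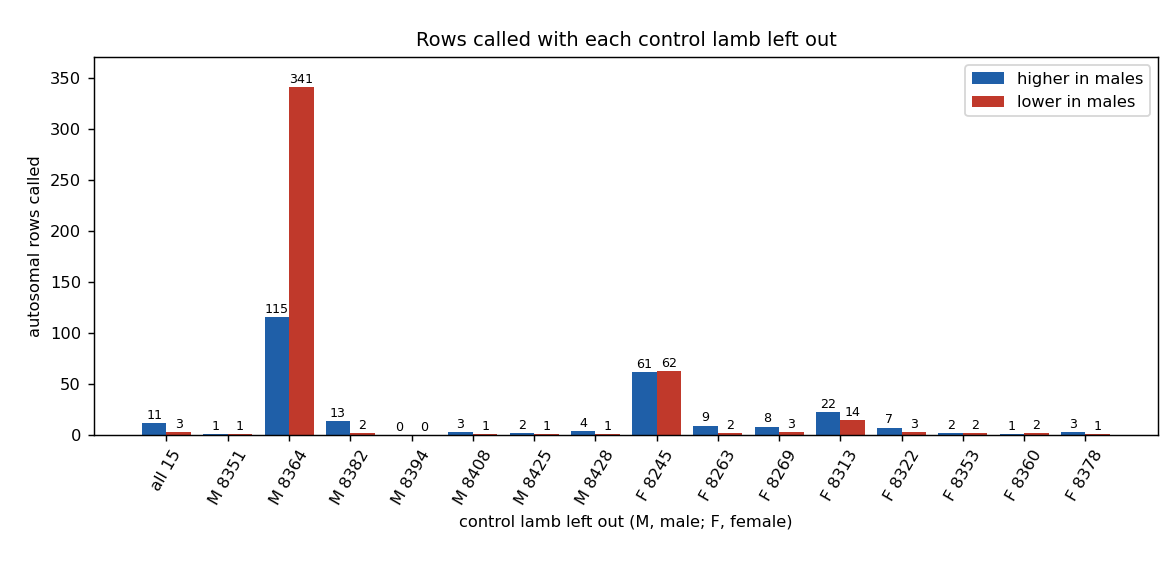
Autosomal rows called (vertical axis, number of rows) with all 15 control lambs and with each control lamb left out in turn (horizontal axis, M male and F female with the tag number). Bars give rows higher and rows lower in males, from 0 and 0 without male 8394 to 115 and 341 without male 8364.

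Collagen chains were 4 of the 11 higher rows. COL1A2 (chromosome 4, 12552707 to 12589620, assembly ARS-UI_Ramb_v3.0), the second chain of type I collagen, had 50.1, 70.9 and 97.1 CPM as the lowest, median and highest male, and 18.1, 32.2 and 49.8 CPM in females. Every male lay above every female, and the log2 fold change was 1.11 ± 0.19 (SE; adjusted p = 0.0233). COL1A1 (chromosome 11, 36191118 to 36208942), its partner chain, had 65.3, 113 and 155 CPM in males and 28.8, 48.2 and 66.1 CPM in females. In 6 of 7 males COL1A1 exceeded the highest female (log2 fold change 1.16 ± 0.21, adjusted p = 0.0233). The COL1A1 row overlaps another row, LOC114116862, on the same strand. COL3A1 (chromosome 2, 120362888 to 120403111), which forms fibrils together with type I collagen, had 160.1, 215 and 228 CPM in males and 64.7, 112 and 146 CPM in females, with no overlap (0.95 ± 0.18, adjusted p = 0.0394). COL6A1 (chromosome 1, 266407449 to 266428488), a chain of the beaded filaments around cells, separated the groups as well, at 60.4, 73.5 and 87.1 against 32.9, 46.0 and 56.0 CPM (0.74 ± 0.13, adjusted p = 0.0233).

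A pair of further matrix genes passed the test. AEBP1 (chromosome 4, 78851180 to 78860933) encodes a secreted carboxypeptidase-like protein that binds collagen fibrils. Its levels were 17.7, 21.1 and 32.5 CPM in males and 8.66, 12.5 and 16.1 CPM in females, with every male above every female (0.93 ± 0.16, adjusted p = 0.0233). MMP2 (chromosome 14, 23247440 to 23273464), which cleaves denatured and type IV collagen, had 16.5, 26.6 and 29.4 CPM in males and 10.3, 15.3 and 19.2 CPM in females (0.80 ± 0.16, adjusted p = 0.049). Male 8364 was the one male inside the female range for MMP2, although the same lamb had the highest COL1A1, COL1A2 and COL3A1 of the males.

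The other collagen chains lay on the same side. This family was gathered by gene name after values had been seen. Of 41 autosomal collagen rows 26 were tested, and 25 of the 26 had a log2 fold change above 0, with a median of 0.62. The 4 chains above were called, and 17 of the 26 were higher at an unadjusted p under 0.05, where 7.76% of all rows were. None was lower at that level. The basement membrane chain COL4A1 had medians of 292 CPM in males and 162 CPM in females (0.62 ± 0.22, adjusted p = 0.17), and the fibril chain COL5A2 58.1 and 34.3 CPM (0.61 ± 0.17, adjusted p = 0.15). COL18A1, the endostatin precursor, ranged from 1584 to 4699.9 CPM in males and from 892 to 4654 CPM in females, so the groups overlapped over nearly their whole range (0.55 ± 0.31, adjusted p = 0.306). At the other end, COL11A2 had -0.02 ± 0.27 and COL27A1 0.01 ± 0.27. Matrix genes were also among the rows with adjusted p-values between 0.05 and 0.1. With higher levels in males these included the prolyl hydroxylase P3H2 (0.57 ± 0.11, adjusted p = 0.0602), thrombospondin THBS2 (0.78 ± 0.17, 0.088), the metalloproteinase ADAMTS7 (0.76 ± 0.17, 0.0911) and tenascin TNC (1.18 ± 0.26, 0.0922).

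Markers of collagen-producing cells were read as a list. Of 20 tested stellate cell and fibroblast markers, 4 were called by edgeR, the collagen chains COL1A1, COL1A2, COL3A1 and COL6A1, all higher in males. DESeq2 called 5 of the 20 and voom 8, all higher, where 1.06% and 5.26% of all rows were. 10 were higher at an unadjusted p under 0.05, where 7.76% of all rows were, and 0 lower. The list median was 0.61, beside -0.04 for all rows. Among the members that are not collagens none was called by edgeR, and their values spread more widely. RELN, a secreted glycoprotein of stellate cells, had 0.67 ± 0.20 (adjusted p = 0.155) and FBLN5, an elastic fibre protein, 0.68 ± 0.17 (0.129). The growth factor receptor PDGFRB had 0.52 ± 0.22 (0.207) and smooth muscle actin ACTA2 0.56 ± 0.27 (0.255). FBLN5 was called by DESeq2 and voom, and RELN and PDGFRB by voom alone. Decorin (DCN, 0.03 ± 0.24), desmin (DES, 0.13 ± 0.15), vimentin (VIM, 0.13 ± 0.13) and the hepatocyte growth factor gene HGF (-0.01 ± 0.21) lay near 0, and LRAT, the retinol-esterifying enzyme that marks quiescent stellate cells, at -0.32 ± 0.19. The mean of the list per lamb ranged from 4.55 to 5.20 log2 CPM in males and from 4.10 to 4.69 in females, and the highest lamb was male 8364. The list median was between 0.54 and 0.73 when each control lamb was left out, 0.60 without the library labelled male 8408.

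LCN2 (lipocalin-2; chromosome 3, 8108566 to 8128289) binds bacterial iron-carrying siderophores and is induced in hepatocytes in the acute phase response. LCN2 had 13.4, 24.2 and 49.1 CPM in males and 6.34, 9.34 and 16.0 CPM in females. Its row has a summed exon length of 16501 bases, and where along it the reads lay was not examined. In all, 6 of the 7 males exceeded the highest female, and the log2 fold change was 1.40 ± 0.25 (adjusted p = 0.0233). LCN2 was 1 of 21 tested acute phase genes and the only one called by edgeR, while DESeq2 called 6 of them and voom 9, all higher. Of the 21, 13 were higher at an unadjusted p under 0.05 and 0 lower, 20 lay above 0, and the median was 0.56. Over all rows 7.76% were higher at that level and 45.7% lay above 0, and DESeq2 and voom called 1.06% and 5.26% higher. The bacterial lipid sensor LBP ranged from 607 to 2181 CPM in males and from 275 to 1265 CPM in females (1.10 ± 0.34, adjusted p = 0.155). The fibrinogen chain FGA had medians of 8995 and 3308 CPM (0.92 ± 0.27, adjusted p = 0.154). ORM1, an acid glycoprotein, ranged from 39.8 to 3469 CPM in males and from 17.5 to 384 CPM in females, with the largest log2 fold change of the list and a wide error (2.10 ± 0.83, adjusted p = 0.189). CRP, the classic acute phase protein in humans, had 0.41 ± 0.21 (0.272) and HAMP, the iron hormone hepcidin, -0.25 ± 0.87 (0.876). The list mean per lamb ranged from 9.46 to 10.16 log2 CPM in males and from 8.67 to 9.69 in females.

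Complement and coagulation genes, another set of secreted hepatocyte proteins, had 33 tested members and all 33 log2 fold changes were above 0. None was called by edgeR, 22 were higher at an unadjusted p under 0.05, and the median was 0.47. Over all rows 7.76% were higher at that level and 45.7% lay above 0. DESeq2 called 8 of them and voom 18, all higher. C2, a protease of the classical pathway, had 1631, 1724 and 2217 CPM in males and 703, 1000.4 and 1498 CPM in females, without overlap (0.73 ± 0.17, adjusted p = 0.107). C3, the central component and also a member of the acute phase list, had medians of 16927 and 7196 CPM but overlapping groups (0.83 ± 0.27, adjusted p = 0.155). MASP1, a protease of the lectin pathway, had medians of 353 and 212 CPM (0.66 ± 0.17, adjusted p = 0.137). General hepatocyte markers moved less, with 11 of 13 above 0, 2 higher at an unadjusted p under 0.05 and a median of 0.33. Whether a shift in hepatocyte share contributes to the secreted protein lists was not tested.

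MUC1, a transmembrane mucin of bile duct epithelium, was the row next to the threshold (adjusted p = 0.0602). It had 15.1, 20.5 and 22.1 CPM in males and 7.12, 9.74 and 17.7 CPM in females (0.85 ± 0.17). Of 11 tested cholangiocyte and mucous epithelium markers none was called by edgeR, 5 were higher at an unadjusted p under 0.05 (7.76% of all rows) and the median was 0.55. DESeq2 called 2 and voom 4, all higher. CLDN4, a tight junction protein, had medians of 200.3 and 118 CPM (0.70 ± 0.17, adjusted p = 0.113). Markers of duct cells did not share 1 direction. The keratin KRT19 had -0.59 ± 0.40, the adhesion molecule EPCAM -0.28 ± 0.30 and the chloride channel CFTR -0.07 ± 0.20, whereas the transcription factor SOX9 had 0.53 ± 0.25 (adjusted p = 0.236) and the secreted phosphoprotein SPP1 1.35 ± 0.93 (adjusted p = 0.39). KRT19 was at most 5.64 CPM in males and 14.7 CPM in females.

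**Figure D3:**
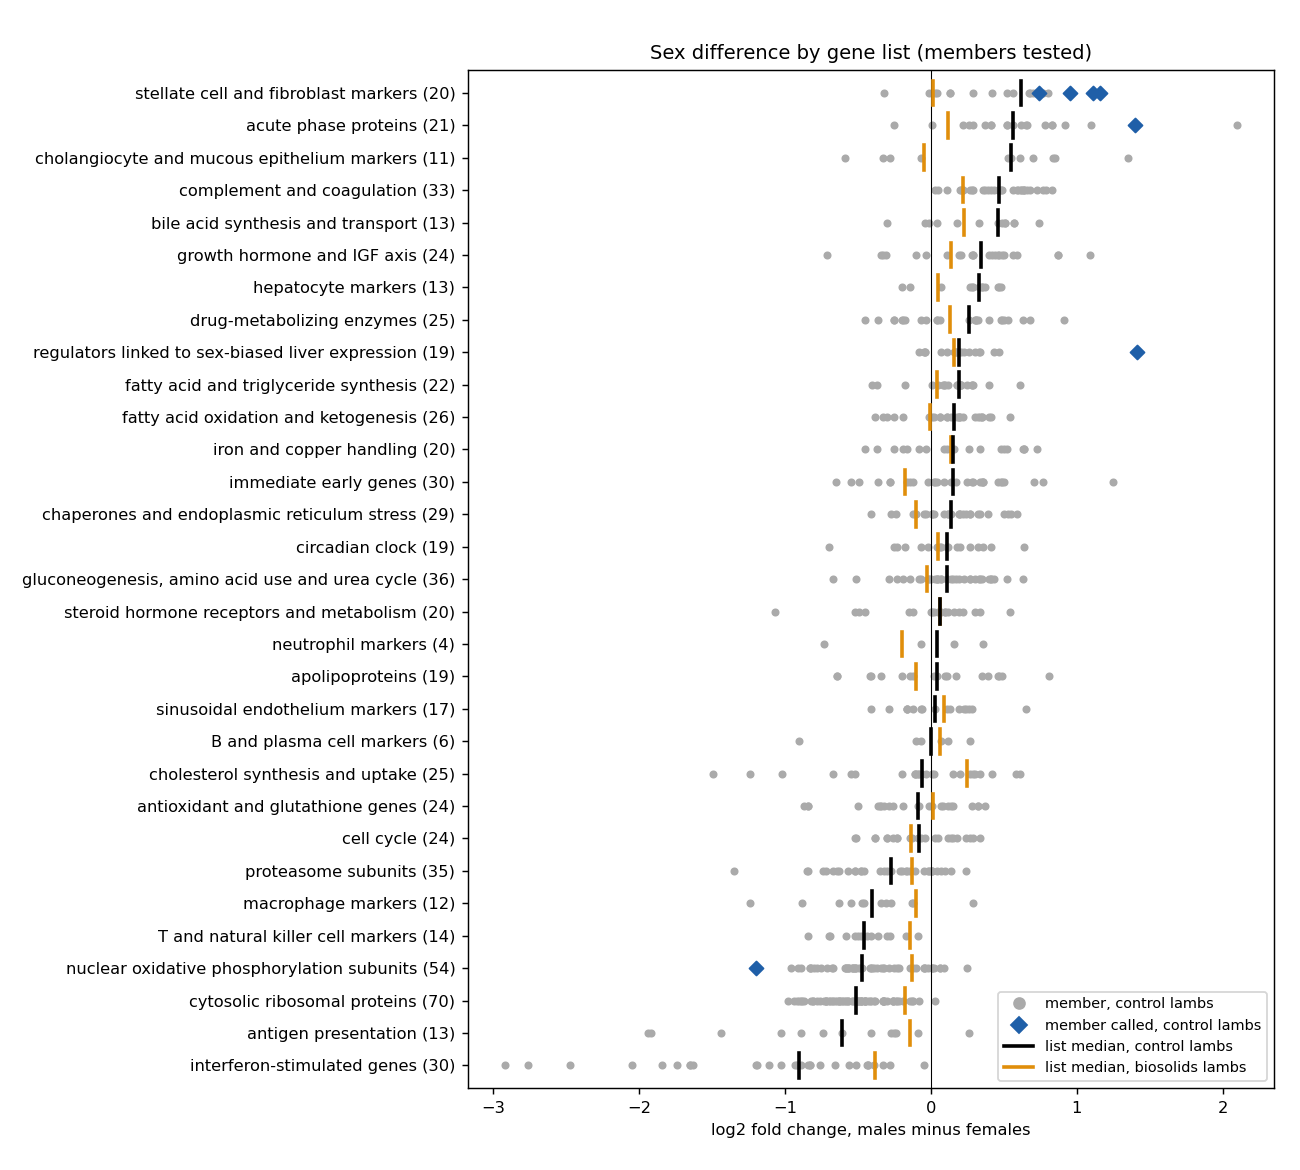
Log2 fold change, males minus females (horizontal axis), of the tested members of 31 gene lists (rows, with the number of members tested), sorted by the median in control lambs. Grey points are members in control lambs and blue diamonds members called there. Black bars are the list medians in control lambs and orange bars the medians in biosolids lambs. The orange bars lie closer to 0 at both ends. They are 0.02 against 0.61 for stellate cell and fibroblast markers and -0.38 against -0.90 for interferon-stimulated genes. Without control female 8263 the control median of the interferon list was -0.11, nearer to 0 than the biosolids median.

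CUX2 (chromosome 17, 54854914 to 55130060) was called with a direction opposite to the one known in mouse liver. It had 15.2, 21.3 and 35.9 CPM in males and 3.64, 8.41 and 14.4 CPM in females, so every male lay above every female (1.41 ± 0.25, adjusted p = 0.0243). Of 19 tested regulators linked to sex-biased liver expression it was the only one called by edgeR. The pioneer factor FOXA1 had medians of 37.1 and 26.2 CPM (0.47 ± 0.13, adjusted p = 0.14). BCL6, male-biased in mice, had medians of 16.3 and 14.3 CPM with wide overlap (-0.04 ± 0.24, adjusted p = 0.941), and its sign changed with the setting. The list median was 0.19, with 4 members higher and 0 lower at an unadjusted p under 0.05, where 7.76% and 12.9% of all rows were.

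The growth hormone and IGF axis had 24 tested members and none was called by edgeR, beside 3 called higher by DESeq2 and 9 by voom. Their median was 0.35, with 18 above 0, 9 higher and 1 lower at an unadjusted p under 0.05. Over all rows these shares were 45.7%, 7.76% and 12.9%. GHR, the growth hormone receptor, had 467, 626 and 726 CPM in males and 312, 389 and 582 CPM in females (0.50 ± 0.17, adjusted p = 0.164). JAK2 had medians of 12.6 and 14.3 CPM (-0.33 ± 0.15, adjusted p = 0.218) and was the 1 member lower at an unadjusted p under 0.05. STAT5B had medians of 40.9 and 33.3 CPM (0.29 ± 0.10, adjusted p = 0.174). The target IGF1, the circulating growth factor, had 203, 237 and 322 CPM in males and 75.9, 143 and 226 CPM in females, so the groups overlapped only between 203 and 226 CPM (0.87 ± 0.21, adjusted p = 0.119). Its partners in the circulating complex lay on the same side, IGFALS at 153, 281 and 492 against 62.0, 133 and 241 CPM (1.09 ± 0.27, adjusted p = 0.126) and IGFBP3 at medians of 607 and 377 CPM (0.59 ± 0.20, adjusted p = 0.164). The feedback inhibitors SOCS2 (0.42 ± 0.23, adjusted p = 0.293) and CISH (0.29 ± 0.16, adjusted p = 0.286) had smaller values. SOCS3 had medians of 86.4 and 39.1 CPM (0.87 ± 0.26, adjusted p = 0.155), and SOCS1 lay on the other side (-0.71 ± 0.47, adjusted p = 0.369).

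Steroid genes did not share a direction. Of 20 tested receptors and enzymes none was called by edgeR, 1 was higher and 3 lower at an unadjusted p under 0.05, and the median was 0.06. Over all rows 7.76% were higher and 12.9% lower at that level. DESeq2 called 1 of the 20 lower, and voom 1 higher and 2 lower. Of all rows DESeq2 called 1.27% lower, and voom 5.26% higher and 7.63% lower. The estrogen receptor ESR1 had 132, 172 and 214 CPM in males and 73.7, 106 and 159 CPM in females (0.54 ± 0.17, adjusted p = 0.155). HSD17B2, which inactivates estradiol and testosterone, had 8.48, 19.2 and 24.1 CPM in males and 12.8, 34.5 and 73.3 CPM in females (-1.07 ± 0.33, adjusted p = 0.155). AKR1D1, the steroid 5-beta-reductase, had medians of 209 and 348 CPM (-0.49 ± 0.16, adjusted p = 0.164). SRD5A1, a 5-alpha-reductase, had 0.19 ± 0.23 and the glucocorticoid receptor NR3C1 0.10 ± 0.10. Drug-metabolizing enzymes had 25 tested members and a median of 0.26, with 0 called by edgeR or DESeq2 and 2 higher and 1 lower by voom. At an unadjusted p under 0.05, 4 were higher and 0 lower, beside 7.76% and 12.9% of all rows. CYP2D6 had medians of 317 and 192 CPM (0.63 ± 0.22, adjusted p = 0.165). Like CYP2D6, CYP2E1 (0.04 ± 0.19) and CYP1A1 (0.53 ± 0.44) did not pass the test.

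Genes of ribosomes and of the respiratory chain had log2 fold changes mostly below 0. Of 70 tested cytosolic ribosomal protein genes, 69 had a log2 fold change below 0 and the median was -0.51. None was called by edgeR, 36 were lower at an unadjusted p under 0.05 and 0 higher, where 12.9% of all rows were lower. DESeq2 called 2 and voom 52, all lower, and with 2 surrogate variables the median was 0.08. Ribosomal protein genes have near-identical pseudogene copies, so their counts are uncertain. RPL30 had medians of 23.8 and 39.7 CPM (-0.58 ± 0.15, adjusted p = 0.126). Of 54 nuclear-encoded subunits of oxidative phosphorylation, 47 lay below 0, 32 were lower at an unadjusted p under 0.05 and the median was -0.48. NDUFB3 (chromosome 2, 203415216 to 203425520), an accessory subunit of complex I, was the one called by edgeR (10 were by DESeq2 and 30 by voom, all lower), with 2.83, 3.21 and 4.23 CPM in males and 3.29, 8.03 and 11 CPM in females (-1.20 ± 0.23, adjusted p = 0.0444). It was below the lowest female in 4 of 7 males. ATP5PF, a coupling factor of ATP synthase, had medians of 34.2 and 54.9 CPM (-0.67 ± 0.14, adjusted p = 0.0811). Proteasome subunits, at 35 tested, had a median of -0.27, with 0 called by edgeR, 3 lower by DESeq2, 12 lower by voom and 13 lower at an unadjusted p under 0.05. PSMC6, an ATPase of its cap, did not overlap between the sexes, at 9.99 to 13.5 CPM in males and 13.7 to 22.3 CPM in females (-0.52 ± 0.12, adjusted p = 0.113).

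Short genes in general lay on the same side. The 752 rows with a summed exon length under 1 kb had a median log2 fold change of -0.40, and 13% of them lay above 0. Of these rows 276 were lower and 9 higher at an unadjusted p under 0.05. Over all rows 12.9% were lower and 7.76% higher at that level, and 45.7% lay above 0. With ribosomal protein genes left out, the median of this class was -0.38. Rows of 1 to 2 kb had a median of -0.12, and classes above 2 kb had medians from -0.03 to 0.02. Short rows took 2.82 to 5.21% of autosomal counts in males and 2.53 to 6.88% in females, so the groups overlapped. The mean of the ribosomal protein list was 6.78 to 6.95 log2 CPM in 5 males but 7.78 in male 8364 and 7.53 in male 8408, and in females it ran from 6.62 (8313) to 8.15 (8360). With that mean as a covariate, the median of the short rows was -0.04, the stellate cell and fibroblast median was 0.57, and 1 row was called, LCN2 (1.64, adjusted p = 0.00744). The acute phase median was then 0.50, complement and coagulation 0.30, cholangiocyte 0.35, bile acid 0.19, growth hormone and IGF axis 0.13 and hepatocyte 0.12. With 2 surrogate variables these medians were, in the same order, 0.43, 0.20, 0.35, 0.06, 0.05 and 0.04, and the stellate median was 0.52. The part of depth, ribosomal RNA share and mitochondrial share, whose values by sex are given above, was not tested.

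**Figure D4:**
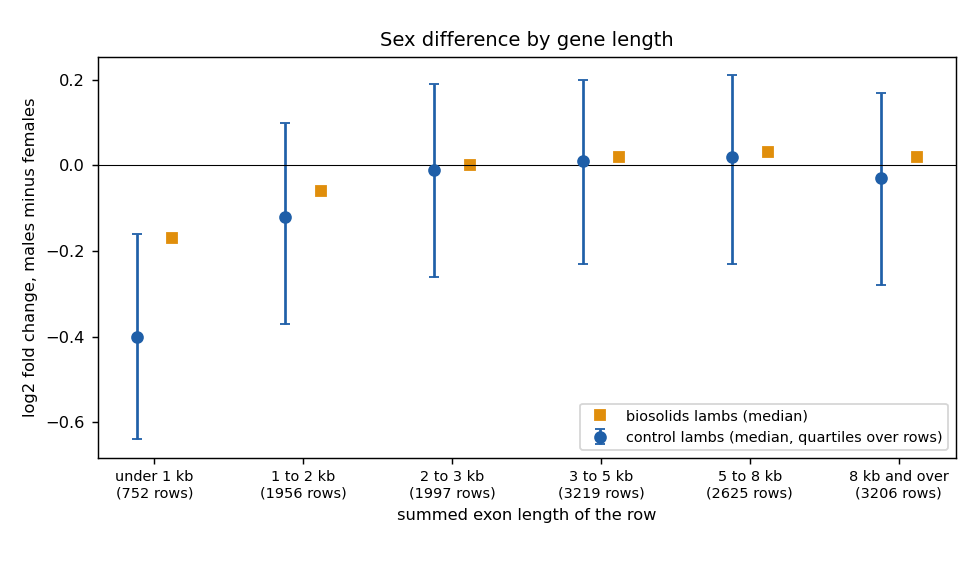
Log2 fold change, males minus females (vertical axis), by class of summed exon length (horizontal axis, with the number of rows). Blue points are medians over rows in control lambs with bars from the lower to the upper quartile, and orange squares are medians in biosolids lambs. The shortest class stands apart in both, at -0.40 in control and -0.17 in biosolids lambs.

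Interferon-stimulated, antigen presentation, macrophage, and T and natural killer cell lists had medians below 0, each nearer to 0 without control female 8263. All 30 tested interferon-stimulated genes had a log2 fold change below 0, with a median of -0.90. However, 0 were called by edgeR, DESeq2 or voom and 4 were lower at an unadjusted p under 0.05. Over all rows 12.9% were lower at that level and 45.7% lay above 0. In control female 8263 IFIT3, an interferon-induced RNA-binding protein, stood at 586 CPM, against at most 56.5 CPM in the other females and 37.7 CPM in males. Without this lamb the list median was -0.11. Antigen presentation genes (13 tested) had a median of -0.61, and -0.14 without the lamb. The light chain of class I molecules, B2M, had medians of 17.9 CPM in males and 56.7 CPM in females (-1.94 ± 0.60, adjusted p = 0.155), and -1.21 without 8263. Macrophage markers (12 tested) had -0.40 and -0.13, and T and natural killer cell markers (14 tested) -0.46 and -0.12. The B and plasma cell list (6 tested) had a median of -0.00 and the neutrophil list (4 tested) 0.05, or -0.04 and 0.21 without 8263. Sinusoidal endothelium markers (17 tested) had a median of 0.03, with VWF, the platelet-adhesion protein, at 0.65 ± 0.24 (adjusted p = 0.18) and LYVE1 at the low end at -0.41.

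The metabolic, clock and cell cycle lists had medians from -0.08 to 0.46. Bile acid synthesis and transport (13 tested) had a median of 0.46, with 5 higher at an unadjusted p under 0.05 (7.76% of all rows). SLCO2B1, one of the uptake transporters in this list, had medians of 1508 and 712 CPM (0.74 ± 0.21, adjusted p = 0.154). Cholesterol synthesis and uptake (25 tested) had a median of -0.06, with 2 higher and 5 lower at an unadjusted p under 0.05 (12.9% of all rows were lower). MSMO1, a sterol methyl oxidase, had medians of 44.3 and 94.7 CPM (-1.02 ± 0.28, adjusted p = 0.151). Iron and copper handling (20 tested) had 0.15 with 7 higher and 2 lower, including the ferrireductase STEAP3 at medians of 237 and 129 CPM (0.73 ± 0.16, adjusted p = 0.0901). Fatty acid oxidation (26 tested, 0.16), fatty acid synthesis (22 tested, 0.19), gluconeogenesis and the urea cycle (36 tested, 0.11), the circadian clock (19 tested, 0.11) and the cell cycle (24 tested, -0.08) each held no member called by edgeR. Over the 31 lists with tested members, 20 medians were above 0 and 10 below, and 4 lists held a called member.

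The remaining called rows belonged to no list. TTC17 (chromosome 15, 72385104 to 72510635), a tetratricopeptide repeat protein linked to cilium assembly, had 41.9, 51.6 and 58.7 CPM in males and 24.5, 30.7 and 42.2 CPM in females (0.68 ± 0.12, adjusted p = 0.0229). KLHL25 (chromosome 18, 15966508 to 16016796), a substrate adaptor of a ubiquitin ligase, had 61.3, 93.0 and 106 CPM and 37.9, 46.7 and 77.5 CPM (0.81 ± 0.15, adjusted p = 0.0374). LOC101105610 (chromosome 1, 21413812 to 21428727), annotated only as protein coding, had 15.3, 16.4 and 41.8 CPM in males and 0.775, 4.15 and 9.41 CPM in females. All males exceeded all females, and its log2 fold change was the largest called, 2.26 ± 0.41 (adjusted p = 0.0374). LOC132657733 (chromosome 14, 14934178 to 14976053) had 3.91, 4.13 and 5.09 CPM in males and 6.06, 10.4 and 17.6 CPM in females (-1.23 ± 0.21, adjusted p = 0.0187). LOC121818672 (chromosome 2, 105570358 to 105579978) had 1.16, 1.34 and 1.53 CPM and 2.07, 2.52 and 4.23 CPM (-1.02 ± 0.18, adjusted p = 0.0233). Neither noncoding row overlapped between the sexes. They lie opposite DNAJA2 and FDFT1, and TTC17 lies opposite LOC132657888. The sources used here do not say if reads were assigned by strand, so reads of such pairs may not be told apart.

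Separation without overlap was rare over the whole table. It held for 25 rows, 0.182% of those tested, 16 with every male above every female (0.116%) and 9 with every male below (0.0654%). Of these 25 rows, 8 were called. Those not called included C2 and the lipopolysaccharide receptor CD14, at 226, 263 and 303 CPM in males and 101, 163 and 224 CPM in females (0.66 ± 0.15, adjusted p = 0.113). Another was the axonal adhesion gene NFASC, at 6.44 to 9.41 CPM in males and 3.81 to 6.04 CPM in females (0.59 ± 0.13, adjusted p = 0.0901). Lactase (LCT) lay below at 0.480 to 0.924 CPM against 1.09 to 1.99 CPM (-0.97 ± 0.20, adjusted p = 0.0785).

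The biosolids lambs share no animal with this comparison and gave the same contrast in other samples. No autosomal row passed adjustment there by edgeR (0% called), and 605 rows, 4.4%, had an unadjusted p under 0.05. DESeq2 called 3 higher and 5 lower. Biosolids male 8778 had 87.5% of its counts on ribosomal RNA rows. Without this lamb edgeR also called 0 rows. Of the 14 rows called in control lambs, 11 had the same direction in biosolids lambs, beside 68.8% of all rows. All 14 had a smaller log2 fold change there, but the control values chose these rows. The median absolute value over all rows was 0.13, beside 0.22 in controls. No row had groups without overlap.

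CUX2 had 8.44, 19.0 and 41.3 CPM in biosolids males and 4.61, 8.16 and 14.8 CPM in biosolids females, which overlapped (1.28 ± 0.32, unadjusted p = 0.00107). LOC132657733 had -0.86 ± 0.28 (unadjusted p = 0.00639). These were the 2 of 14 that were under an unadjusted p of 0.05 in the same direction. IGF1 had 1.07 ± 0.36 (unadjusted p = 0.00879), IGFALS 0.82 ± 0.44, GHR 0.45 ± 0.23 and IGFBP3 0.50 ± 0.29, all in the direction seen in control lambs. Over the 24 growth hormone and IGF axis members the median was 0.13 with 20 above 0 (50.6% of all rows), beside a median of 0.35 in control lambs. At an unadjusted p under 0.05, 1 was higher (2.24% of all rows) and 0 lower, beside 9 higher and 1 lower in control lambs. STAT3 (-0.18) and JAK2 (0.09) had the opposite sign to that in control lambs, and SOCS3 had 0.08. For type I collagen the values lay near 0. COL1A1 had 18.3, 59.2 and 106 CPM in biosolids males and 25.9, 56.9 and 198 CPM in biosolids females (-0.11 ± 0.44), and COL1A2 had -0.03 ± 0.39. COL3A1 had 0.38 ± 0.30. The 26 collagen chains had a median of 0.29 in biosolids lambs with 18 above 0 (50.6% of all rows), and 2 were higher at an unadjusted p under 0.05 (2.24% of all rows). LCN2 had 4.84, 9.50 and 14.8 CPM in biosolids males and 4.75, 8.85 and 14.3 CPM in biosolids females (-0.02 ± 0.28), while the median of control males was 24.2 CPM. MUC1 had -0.05 ± 0.22. Without biosolids male 8778 the values were 1.38 for CUX2, -1.09 for LOC132657733, 1.17 for IGF1, -0.04 for LCN2, 0.03 for MUC1, 0.03 for COL1A1, 0.10 for COL1A2 and 0.51 for COL3A1, so the signs of MUC1 and of both type I chains were not stable.

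**Figure D5:**
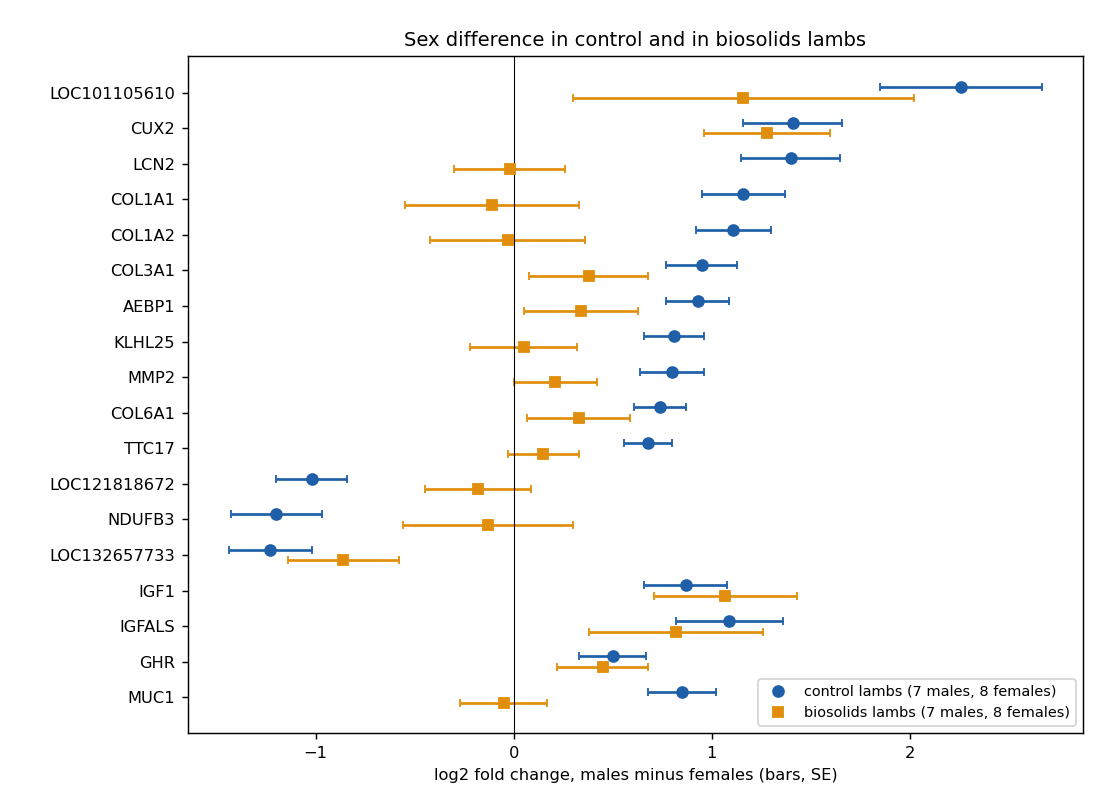
Log2 fold change, males minus females (horizontal axis, bars are SE), of the 14 called rows and of IGF1, IGFALS, GHR and MUC1 in control lambs (blue circles) and in biosolids lambs (orange squares), 7 males and 8 females each. CUX2 and IGF1 have nearly the same value in both (1.41 and 1.28, 0.87 and 1.07), whereas LCN2 and the type I collagens lie near 0 in biosolids lambs.

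The difference between these 2 sex effects was tested over all rows with all 30 lambs. No row was called by edgeR or by DESeq2 (0%), and 480 rows, 3.49%, had an unadjusted p under 0.05 by edgeR. For LCN2 the difference, control minus biosolids, was 1.43 ± 0.39 (unadjusted p = 0.000929, adjusted p = 0.816). For COL1A1 it was 1.28 ± 0.51 (unadjusted p = 0.0172) and for COL1A2 1.15 ± 0.45 (0.0168). For CUX2 it was 0.13 ± 0.43 (0.758). Without biosolids male 8778 it was 1.45 for LCN2, 1.13 for COL1A1, 1.01 for COL1A2 and 0.03 for CUX2, and again 0 rows were called. No sex effect was shown to differ between control and biosolids lambs after adjustment.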

How the data were processed

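Frozen liver RNA was prepared with a TruSeq kit and read on a NovaSeq instrument, per the labels' protocols. The authors deposited whole-number gene counts, not normalized, with 1 column per lamb; STAR, featureCounts 1.5.0-p3, Trimmomatic, FastQC and MultiQC are named in the submitters' processing notes, without settings. The deposited table also gives summed exon length in bases. In it 7 genes were broken over 25 lines, and these were joined. 28806 rows matched RefSeq (ARS-UI_Ramb_v3.0) by symbol, all with identical start and end.

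Groups were read from the labels. Rows with at least 1 CPM in 7 of the 15 control libraries, sex chromosomes included, were fitted with edgeR 4.0.16 in R 4.3.3 (TMM scaling, robust quasi-likelihood test, 13 residual degrees of freedom, Benjamini-Hochberg over all these rows). Only autosomal rows are reported. Of the rows elsewhere, 8 of 28 on Y were called higher in males and 2 of 471 on X lower. Standard errors are the absolute log2 fold change divided by the root of F. The biological coefficient of variation was 32.1% in control and 31.4% in biosolids lambs, which were scaled and fitted separately. CPM uses TMM-scaled library sizes, and list means per lamb use log2 CPM with a prior count of 2. P-values measure the spread between lambs.

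The members and gene lists were chosen with earlier results of these data known, so list counts carry no test. Named genes were the called rows, the 8 smallest p in each direction, up to 8 called or 2 smallest-p members per list, a fixed set of hormone and metabolic genes (some not reported here), and the 5 uncharacterised rows with the smallest p in each direction. Other list members, the rows with an adjusted p between 0.05 and 0.1 and NFASC were picked after their values were seen. The pipeline was tested on simulated counts. Alternatives were other scalings and filters, DESeq2 1.42.0, limma voom 3.58.1, 2 surrogate variables (sva 3.50.0), a 4-group model, covariates and leaving out lambs.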

Additional observations from a re-analysis of the deposited data

Results flagged for a closer look

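Among 82 comparisons of a highest or lowest lamb with the rest of its group, over 38 genes and library measures, 8 had a value far from the others of its group, and these came from 5 lambs. Chance alone gives about 1 in 20. Male 8364 accounted for 4 of the 8. It was lowest of the males for MMP2 (16.5 CPM, median 26.6) and highest for SPTSSA, a subunit of the first enzyme of sphingolipid synthesis (10.5 CPM, median 5.10), for AKR1D1 (309.8 CPM, median 209) and for NR3C1 (83.2 CPM, median 70.1). Male 8351 was highest for LOC101105610 (41.8 CPM, median 16.4). Female 8353 was highest for LOC121818672 (4.23 CPM, median 2.52), and female 8263 for IL1RN, the interleukin-1 receptor antagonist (123 CPM, median 72.3). Female 8245 had the most counts of the control females (39.1 M, median 32.3 M).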

How the results depend on the processing

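Against 11 higher and 3 lower rows, upper-quartile and RLE scaling, filterByExpr, no low-count filter and removal of ribosomal RNA rows gave 10 to 13 higher and 3 lower. The counts were 146 and 175 with DESeq2, 724 and 1050 with voom, 30 and 15 at an adjusted p under 0.1, 7 and 2 with adjustment over autosomal rows, 3 and 0 with 2 surrogate variables, 1 and 1 in the 4-group model, 1 and 0 with the ribosomal covariate, 0 and 0 with a fold limit of 0.5 log2, and 3 and 0 without lambs 8263 and 8408. Leaving out 1 lamb gave 0 to 115 higher and 0 to 341 lower, and in biosolids lambs, where DESeq2 called 3 and 5, 0 to 1 in each direction. The cause was not tested. None of the 14 rows changed direction in any of 28 alternatives. Values near 0 changed sign. SHBG had -0.03 with 2 surrogate variables. SRD5A1 had -0.21 with 2 surrogate variables and -0.14 with the ribosomal covariate. CYP2E1 had -0.01 with 2 surrogate variables, -0.12 with voom, -0.04 without 8263, -0.01 without 8394, -0.03 without 8408 and -0.12 without both 8263 and 8408, and leaving out 1 lamb gave up to 0.12. BCL6 had 0.40 with 2 surrogate variables, 0.18 with voom, 0.01 without a filter, 0.22 with the covariate, 0.15 without 8263, 0.07 without 8353, 0.01 without 8351, 0.03 without 8382, 0.01 without 8408 and 0.19 without both, and leaving out 1 lamb gave down to -0.16. No paired analysis was possible because tags are unique to each lamb. The promoter motif search was not run, as no promoter sequences were used here.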
